A study of Mus musculus with 9 samples.

Results

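The complement components described here are 9 of the 19769 mouse genes with a deposited RNA value: the C1q chains C1qa, C1qb and C1qc, the proteases C1ra, C1s1 and C2, the thioester proteins C3 and C4b, and the alternative pathway protease Cfb. They were picked by name, with their levels in these same libraries known, so the values below describe them and carry no test. In high-MYC mouse embryonic fibroblasts (MEFs), all 9 lay above their levels in low-MYC MEFs when counted per cell. So did 92.5% of all listed genes, with both high-MYC libraries above both low-MYC libraries. The members differed widely in the size of this difference. The C1q chains had 1 to 4 reads, or none, in a low-MYC library and 235 to 414 in a high-MYC library, C3, C1s1, C2, C4b and C1ra were 5.35-fold to 9.27-fold higher per cell, and Cfb was 2.51-fold higher, close to the median of all genes.

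Complement is a cascade of plasma proteins that marks particles for uptake and can form pores in membranes. In the classical pathway the recognition molecule C1q, built from A, B and C chains in equal numbers, carries the proteases C1r and C1s. C1s cleaves C4 and C2 into the convertase that cleaves C3, and in the alternative pathway factor B takes the place of C2. The liver makes most of the circulating C3, C4, C2 and factor B. C1q, by contrast, comes mainly from macrophages and related myeloid cells, whereas fibroblasts are a known source of C1r, C1s and C3.

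RNA was sequenced from primary MEFs of Myc-Egfp+/+ mice, whose MYC protein is fused to green fluorescent protein. All cells had been given the proteasome inhibitor MG-132 at 20 µM over 6 h, were then sorted by flow cytometry into a low-GFP group (low-MYC) and a high-GFP group (high-MYC), and were seeded overnight before RNA was prepared. Each of the 2 groups has 2 libraries that are technical replicates, so any spread or p-value below refers to these libraries and not to independent embryos or cultures. Synthetic ERCC RNAs were added in proportion to cell number, and the deposited unit is fragments per kilobase (FPK) divided by a spike-in score, which makes it a level per cell. Per read the deposited values differ by a constant in each library, from which 87683493 to 96332031 reads per library were recovered. Levels relative to these totals are given as RPM, reads per 1000000 recovered reads. A read in the high-MYC libraries counts for 2.24 and 2.54 times a read in low-MYC replicate 1, so the median gene was 2.28-fold higher per cell and 1.005-fold higher in RPM. Both scales are given below.

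All 12 fibroblast markers examined were detected, with a summed level of 10651 to 12698 RPM in the 4 libraries. None of 8 lymphocyte markers was listed. The 18 macrophage markers examined were all listed. All 18 were higher in both high-MYC libraries than in both low-MYC libraries on the scale per cell. So were all 12 fibroblast markers and 92.5% of all listed genes, so this count sets the macrophage markers apart from neither. The summed level of the macrophage markers was 9.21 and 11.6 RPM in the low-MYC libraries and 172 RPM in each high-MYC library. Lyz2 was a large part of the high-MYC sum. The summed reads were 864 and 1119 in low-MYC and 16052 and 15056 in high-MYC libraries. Without Lyz2 they were 829 and 957 in low-MYC and 6852 and 6495 in high-MYC libraries. The low-MYC libraries were not alike in this respect: 14 of the 18 markers had a higher RPM in replicate 2 than in replicate 1, and Lyz2, the lysozyme of myeloid cells, had 35 and 162 reads there against 9200 and 8561 in the high-MYC libraries. Adgre1, Spi1 and Tyrobp, which are typical of macrophages, were at 0 reads in low-MYC replicate 1. In bulk RNA, fewer cells of a type and less RNA per cell cannot be told apart.

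The C1q chains were the members with the lowest reads in low-MYC and the steepest difference. C1qa, the A chain (chromosome 4, 136895917 to 136898803, minus strand, mm10), had 0 and 2 reads in the low-MYC libraries and 349 and 264 in the high-MYC libraries. In normalized FPK this was 0.00151 ± 0.00214 for low-MYC against 1.09 ± 0.120 for high-MYC (SD, n = 2). The low-MYC value therefore rests on 2 reads.

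C1qb, the B chain (chromosome 4, 136880129 to 136886187, minus strand), had 1 and 2 reads in low-MYC and 283 and 235 reads in high-MYC libraries. Its normalized FPK was 0.00108 ± 0.000511 and 0.442 ± 0.0194 (SD, n = 2). C1qc, the C chain (chromosome 4, 136889804 to 136893065, minus strand), had 4 reads in each low-MYC library and 414 and 358 in the high-MYC libraries, with normalized FPK of 0.00534 ± 1.26e-05 and 1.23 ± 0.0188 (SD, n = 2). For each chain both high-MYC libraries lay far above both low-MYC libraries, and the replicates within high-MYC differed by much less than the groups.

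**Figure D1:**
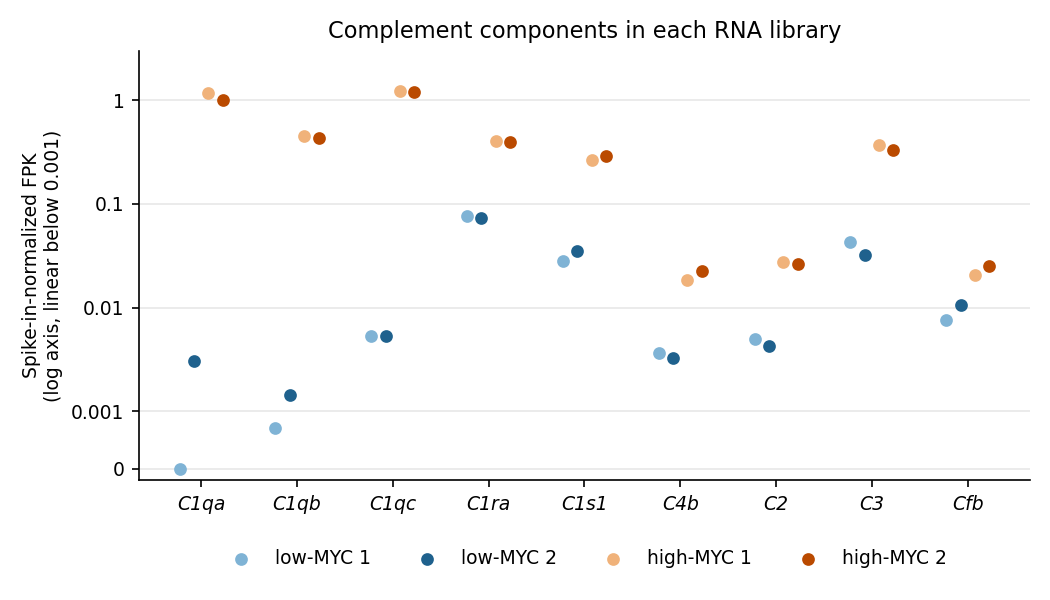
Spike-in-normalized FPK (vertical axis, logarithmic and linear below 0.001) of the 9 complement components in the 2 low-MYC libraries (blue) and the 2 high-MYC libraries (orange), 1 point per library. The C1q chains lie near the bottom in low-MYC and at 0.428 or more in high-MYC, whereas Cfb stays between 0.00757 and 0.0252.

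The ratio of mean normalized FPK was 724 for C1qa, 409 for C1qb and 229 for C1qc. In RPM the ratio was 322 for C1qa (95% exact interval 88.6 to 2661), 181 for C1qb (61.6 to 881) and 101 for C1qc (51.1 to 235). These intervals cover counting error only, and they overlap, so the order of the chains by ratio is not resolved at this depth. In high-MYC the chains were also near each other in level. C1qa had 336 and 254 reads per kb of its longest annotated transcript, C1qb 260 and 216, and C1qc 344 and 298, so C1qb was the lowest and C1qc the highest chain in both libraries. The 3 genes lie next to each other on chromosome 4 in the order C1qb, C1qc, C1qa, with 3617 and 2852 bp between them. The genes on either side did not share their pattern: Ephb2, which encodes a receptor tyrosine kinase, had a ratio of mean normalized FPK of 3.04, and Zbtb40, a zinc-finger gene, one of 1.96.

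Because the C1q chains moved together, the bases before their annotated starts are shown, with those of C3 as the best-covered member outside C1q. The sequences are from RefSeq (GRCm38.p6), minus strand, and end at the base before the start; capitals mark a match to GAGGAAG, a core bound by the myeloid factor PU.1, here read on the other strand. The C1qb stretch is chr4:136886201-136886350, the C1qc stretch chr4:136893066-136893164 and the C3 stretch chr17:57228137-57228286.
C1qb: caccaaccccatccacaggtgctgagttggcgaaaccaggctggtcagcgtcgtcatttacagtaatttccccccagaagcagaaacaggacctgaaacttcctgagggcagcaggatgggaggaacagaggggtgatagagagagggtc
C1qc: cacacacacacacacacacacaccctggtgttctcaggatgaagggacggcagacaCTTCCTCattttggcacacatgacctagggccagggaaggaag
C3: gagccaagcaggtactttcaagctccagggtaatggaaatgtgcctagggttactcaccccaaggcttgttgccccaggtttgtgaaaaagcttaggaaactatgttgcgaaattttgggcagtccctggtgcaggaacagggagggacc

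The match in C1qc spans the bases 43 to 37 before the start annotated by GENCODE, at which the C1qc stretch ends. Counted from the RefSeq start of C1qc at 136892914, which sets the window used below, the match begins 194 bases before the start. GAGGAAG occurred on either strand in 13.6% of all 32851 RefSeq promoter windows of 300 bases (250 before to 50 after the start), so that 1 match among the members is a description only. A further match in these windows was TATAAA, the TATA box, which begins 14 bases downstream of the annotated start of C3 and also occurred in 13.6% of all windows. Windows were given for 5 of the 9 members (C1qb, C1qc, C1ra, C1s1 and C3), and none of them held GAAACTGAA (interferon response, 0.627% of all windows), GGGACTTTC (NF-kB, 0.353%) or CACGTG (the E-box bound by MYC, 7.15%) on either strand.

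C1ra and C1s1, the proteases carried by C1q, were already transcribed in low-MYC cells. C1ra (chromosome 6, 124512405 to 124523443, plus strand) had 194 and 186 reads in low-MYC and 461 and 397 in high-MYC libraries, and its normalized FPK was 0.0751 ± 0.00217 and 0.402 ± 0.00767 (SD, n = 2). C1s1 (chromosome 6, 124530345 to 124542359, minus strand) had 78.0 and 97.7 reads in low-MYC and 324 and 313 in high-MYC libraries, with normalized FPK of 0.0319 ± 0.00512 and 0.275 ± 0.0173 (SD, n = 2). The groups did not overlap for either gene. The ratio of mean normalized FPK was 5.35 for C1ra and 8.64 for C1s1, and in RPM it was 2.37 (95% exact interval 2.09 to 2.68) and 3.80 (3.21 to 4.51). These counting intervals do not overlap, and C1s1 had the higher ratio. In reads per kb the ratio of C1ra to C1s1 was 2.46 and 1.88 in low-MYC and 1.41 and 1.25 in high-MYC.

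Reads of C1ra and C1s1 can be shared with the near-identical copies C1rb and C1s2, and the strand used in counting was not stated, so an antisense gene that overlaps C1s1 could also take or give reads. The copies were hardly detected. C1rb had 6.60 reads summed over the low-MYC libraries and 6.54 over the high-MYC libraries, and C1s2 had 5.34 and 9.45. C1rl, a related protease gene 1762 bp from C1ra, had 288 and 504 reads summed over the groups, a ratio of mean normalized FPK of 4.14.

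C4b and C2, which together form the classical C3 convertase, were low in both groups. C4b (chromosome 17, 34728380 to 34743882, minus strand) had 13.1 and 11.6 reads in low-MYC and 29.1 and 31.4 in high-MYC libraries, and its normalized FPK was 0.00347 ± 0.000302 and 0.0204 ± 0.00287 (SD, n = 2). C2 (chromosome 17, 34862604 to 34898265, minus strand) had 40.5 and 35.0 reads in low-MYC and 101 and 85.0 in high-MYC libraries, with normalized FPK of 0.00462 ± 0.000463 and 0.0270 ± 0.000947 (SD, n = 2). The groups did not overlap, and the ratios of means were almost the same: 5.87 for C4b and 5.85 for C2. In RPM C4b was 2.56-fold higher (95% exact interval 1.58 to 4.26) and C2 2.57-fold higher (1.96 to 3.40). C4b shares sequence with its copy C4a, which had 35.3 and 43.5 reads summed over the groups, so the division of reads between them is uncertain. C2 overlaps a read-through gene and Zbtb12, and its reads could likewise be divided among these.

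C3, the protein on which the pathways converge, was at the upper end of the 6 members outside C1q. C3 (chromosome 17, 57203970 to 57228136, minus strand) had 241 and 178 reads in low-MYC and 914 and 724 in high-MYC libraries. Its normalized FPK was 0.0378 ± 0.00795 and 0.350 ± 0.0270 (SD, n = 2). The groups were well apart. The ratio of means was 9.27, and in RPM it was 4.10 (95% exact interval 3.68 to 4.58), an interval that overlaps that of C1s1, so their order is not resolved. The genes next to C3 showed ratios of mean normalized FPK near the median gene, 2.13 for Tnfsf9, a cytokine gene, and 2.30 for Gpr108.

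Cfb, the protease of the alternative pathway, was the exception. Cfb (chromosome 17, 34856374 to 34862518, minus strand) had 10.7 and 15 reads in low-MYC and 13.0 and 14 in high-MYC libraries. Its normalized FPK was 0.00911 ± 0.00219 and 0.0229 ± 0.00319 (SD, n = 2), which do not overlap, but in RPM the groups overlapped and the ratio was 1.09 with an interval of 0.612 to 1.94. Apart from the gain per cell that the median gene also showed, no difference in Cfb was detectable at this depth. The start of Cfb lies 86 bp from C2, whose interval in RPM (1.96 to 3.40) lies just above that of Cfb. At its other end Cfb lies 2 bp from Nelfe, which encodes a subunit of a factor that pauses RNA polymerase and had a ratio of mean normalized FPK of 2.37.

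Counted over the 9 members, 9 were higher in both high-MYC libraries than in both low-MYC libraries per cell, but so were 92.5% of all listed genes. By ratio of mean normalized FPK, 8 of the 9 were at least 5-fold higher, against 4.67% of all genes. In RPM, 8 of the 9 (all but Cfb) were higher in both high-MYC libraries, against 31.1% of all genes. By ratio of RPM, 8 were at least 2-fold higher, against 5.65%, and the 3 C1q chains were at least 5-fold higher, against 1.51%. The rule that chose the members used this contrast, so nothing is read from these shares. The study's own list of strongly raised genes, drawn up on the same libraries, also holds C1ra, C1s1, C2, C3 and C4b.

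**Figure D2:**
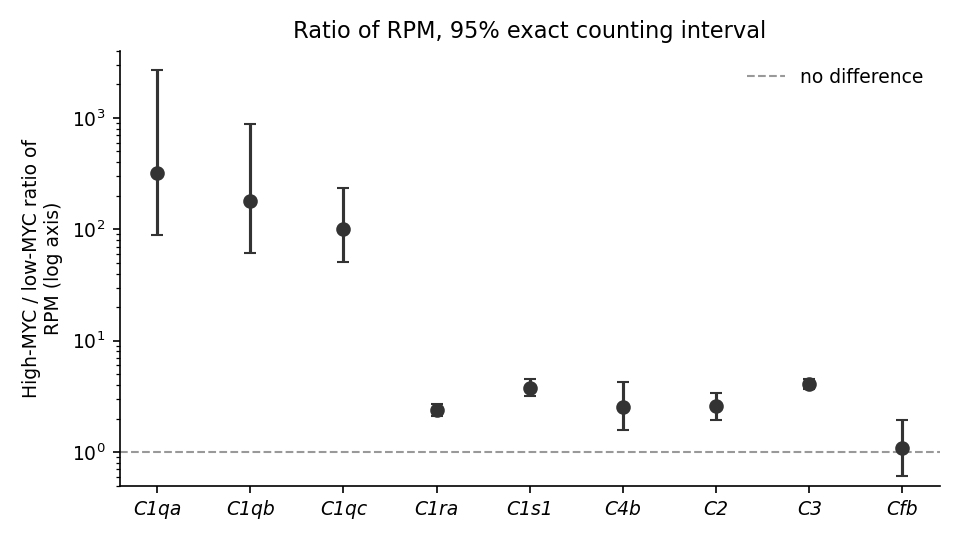
Ratio of RPM in high-MYC to low-MYC libraries (logarithmic vertical axis) for each component, with the reads of the 2 libraries of a group summed; bars are 95% exact counting intervals and the dashed line marks no difference. The C1q chains lie at 101 to 322, C1ra, C1s1, C4b, C2 and C3 at 2.37 to 4.10, and the interval of Cfb includes 1.

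Set against each other, the C1q chains had a median log2 fold change of 3.55 on the log2(normalized FPK + 0.1) scale and the other 6 members one of 0.89, a difference of 2.66. The pseudocount of 0.1 exceeds the low-MYC level of every member and compresses both values. As log2 ratios of mean normalized FPK the medians were 8.68 and 2.55, a difference of 6.13, and as log2 ratios of RPM they were 7.50 and 1.36, a difference of 6.14. The scaling of the libraries cancels in a difference of log2 ratios, so 6.13 and 6.14 are near each other by arithmetic. Each median did depend on the scaling. The difference between the groups of members depended strongly on the pseudocount.

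The make-up of the pathway within a library does not depend on the spike-in at all. In reads per kb, C1q chains made up 2.58% and 4.48% of the sum of the 9 members in the low-MYC libraries and 65.7% and 64.5% in the high-MYC libraries. C1ra was the largest part in low-MYC, 39.6% and 39.5%, and made up 10.8% and 11.2% in high-MYC. C3 made up 28.5% and 21.9% in low-MYC and 12.4% and 11.8% in high-MYC. The low-MYC libraries were thus led by C1ra and C3, and the high-MYC libraries by the C1q chains, although the other 6 members also had more reads there, 1842 and 1564 in total against 578 and 523.

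**Figure D3:**
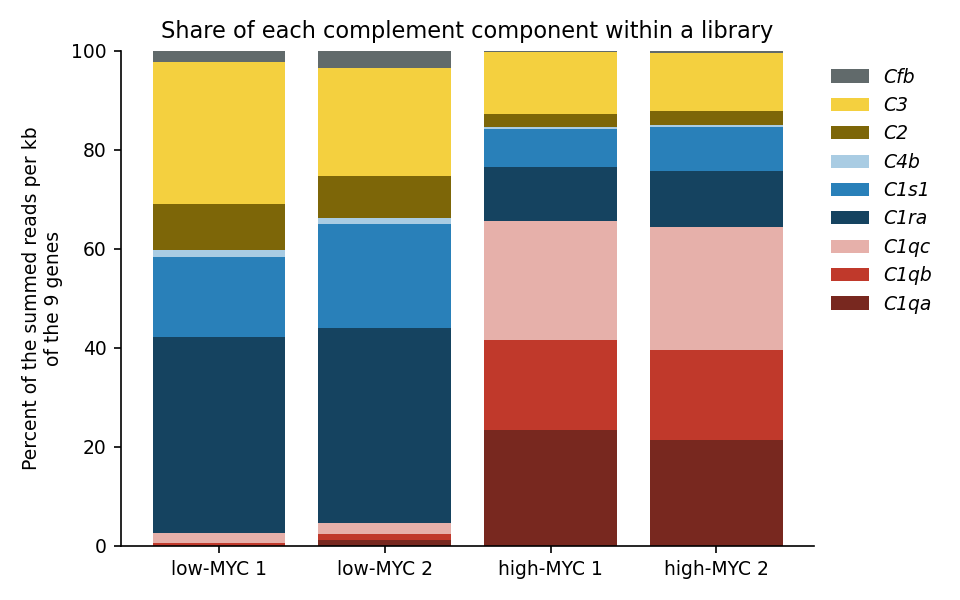
Percent of the summed reads per kb of the 9 components (vertical axis) that each contributed in each library. The red C1q segments take 2.58% and 4.48% of the low-MYC bars and 65.7% and 64.5% of the high-MYC bars.

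The C1q reads moved with the macrophage markers described above. C1q chains gave 5 and 8 reads in the low-MYC libraries and 1046 and 857 in the high-MYC libraries. Set against the summed macrophage marker reads, this was 5.79 and 7.15 C1q reads per 1000 in low-MYC and 65.2 and 56.9 in high-MYC, so the C1q sum differed more between groups than the marker sum did. Cd68, Csf1r and Cd53, each with at least 125 reads in both low-MYC libraries, make up most of the low-MYC sum. In the high-MYC libraries Lyz2 gave 9200 and 8561 of the 16052 and 15056 marker reads. Single markers reached the range of the C1q chains. The RPM ratio was 171 for Tyrobp (95% exact interval 58.1 to 830), 155 for Fcer1g (42.5 to 1284), 99.0 for Laptm5 (60.7 to 174) and 94.6 for Lyz2 (82.2 to 109), and the median of the 18 was 29.1. The part of macrophages in the result was not tested. The summed fibroblast markers were at 10964 and 10651 RPM in low-MYC and 12698 and 12113 in high-MYC. The single fibroblast markers had RPM ratios of 0.813 to 2.65. That of Lum, a matrix proteoglycan, was 2.65 (95% exact interval 2.53 to 2.79). This interval overlaps those of C1ra, C2 and C4b, so their order is not resolved. The ratios of Dcn and Col3a1 were 1.98 and 1.70.

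Of 50 further complement genes, 33 were listed. Those not listed include the mannose-binding lectins Mbl1 and Mbl2, factor D (Cfd), factor I (Cfi), and C6, C7, C8a, C8b and C9 of the membrane attack complex. The 33 had a median ratio of mean normalized FPK of 3.20, against 2.28 for all genes, and a median ratio of 1.41 in RPM, against 1.005. Only 12 had a mean of at least 0.1 and entered the limma test, and 11 passed an adjusted p under 0.01 at 2-fold or more, against 55.1% of the 11870 genes tested; the other, Cr1l, was higher by 0.92 on the log2 scale. In that test 0 of the 12 reached 5-fold (0.286% of all genes tested), also at an unadjusted p under 0.05, whereas limma-voom on the recovered reads at the spike-in scale, which took in all 33, gave 7 (4.1% of all genes). Of these 7, Cfp, C5ar1 and Serping1 were among the 12, and Fcna, Itgam, Itgax and Itgb2 were not. When the libraries were rescaled to the same median, C5ar1 and Cfp were at least 2-fold higher (0.573%).

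The recovered reads allow all 33 to be tested. At the spike-in scale limma-voom called 26 at least 2-fold higher, against 72.2% of all genes. With limma-voom in RPM, 14 were higher with an adjusted p under 0.01 (8.95% of all genes), 0 were lower (5.35%; 1 at an unadjusted p under 0.05), and 8 were at least 2-fold higher (2.29%): the receptor genes C3ar1, C5ar1, Itgam, Itgax and Itgb2, the lectin gene Fcna, the regulator gene Serping1 and the alternative pathway gene Cfp. Some of these 8, among them C5ar1, Cfp, Serping1, Itgam and Itgb2, are also on the study's list from these libraries and are no independent evidence.

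The receptors had the highest median ratio among these lists, 23.9 in mean normalized FPK over the 7 listed. C5ar1, the receptor for the C5a fragment, had 27 and 31 reads in low-MYC and 471 and 445 in high-MYC libraries, which is 4.03 ± 0.224 (standard error) on the log2 RPM scale (limma-voom, adjusted p = 2.59e-09). Itgb2, the shared chain of the complement receptors CR3 and CR4, had 18 and 25 reads in low-MYC and 367 and 256 in high-MYC libraries, a log2 fold change of 3.89 (adjusted p = 3.18e-07, limma-voom). Both genes are typical of myeloid cells. C3ar1, the receptor for C3a, differed less, with 553 and 597 reads in low-MYC and 1186 and 1122 in high-MYC libraries and a log2 fold change of 1.07 (adjusted p = 1.05e-08, limma-voom).

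Regulators and terminal components had smaller median ratios than the receptors. In mean normalized FPK these were 3.42 for soluble regulators, 2.43 for membrane regulators and 2.33 for terminal components. Serping1 and Cfp nevertheless had higher ratios than the receptor gene C3ar1. Serping1, the C1 inhibitor that blocks C1r and C1s, had 63 and 65 reads in low-MYC and 305 and 220 in high-MYC libraries, a log2 fold change of 2.08 in RPM (adjusted p = 1.05e-06, limma-voom). Clu, which binds the terminal complex, rose by 0.59 on the log2 RPM scale (adjusted p = 1.04e-06, limma-voom). Cfp, properdin, which stabilizes the convertase that Cfb helps to form, had 64 and 58 reads in low-MYC and 216 and 187 in high-MYC libraries, a log2 fold change of 1.79 (adjusted p = 1.97e-06, limma-voom). Membrane regulators had a median ratio of 1.06 in RPM. Cd55, which speeds the decay of convertases, was at 0.07 on that log2 scale (adjusted p = 0.283, limma-voom), and Cd59a, which blocks the membrane attack complex, was at 0.09 (adjusted p = 0.455, limma-voom). Of the terminal components, Hc, the C5 gene, had 51 and 43 reads in low-MYC and 63 and 46 in high-MYC libraries, a log2 fold change of 0.28 (adjusted p = 0.491, limma-voom).

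The lectin pathway also has its own proteases. Masp1 was abundant, with 24557 and 24954 reads in low-MYC and 33098 and 31208 in high-MYC libraries, and rose by 0.45 on the log2 RPM scale (adjusted p = 2.87e-08, limma-voom). Masp2 had 5.42 and 9.94 reads in low-MYC and 11.5 and 6.13 in high-MYC libraries, groups that overlapped in reads. Fcna, a ficolin, had 3 reads in each low-MYC library and 16 and 17 in the high-MYC libraries.

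**Figure D4:**
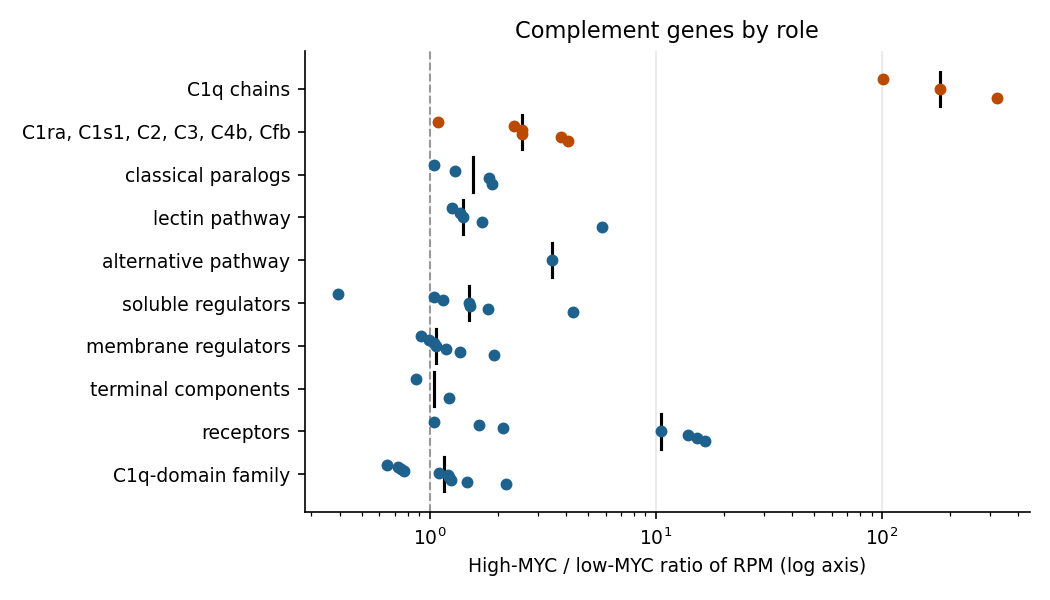
Ratio of RPM in high-MYC to low-MYC libraries (logarithmic horizontal axis) for each listed complement gene, grouped by role; each point is a gene, black lines are medians, orange marks the 9 components and the dashed line no difference. The C1q chains lie to the right of every other gene, the receptors have a median of 10.5, and the membrane regulators have one of 1.06.

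Other genes with a C1q-like domain had far lower ratios than the C1q chains. Of 13 such genes 10 were listed, with a median ratio of mean normalized FPK of 2.63 and of 1.15 in RPM. The highest of them, C1qtnf1, rose by 1.11 on the log2 RPM scale (adjusted p = 5.21e-07, limma-voom). C1qtnf3 fell by 0.37 (adjusted p = 4.26e-07, limma-voom) and C1ql3 fell by 0.63 (adjusted p = 1.57e-05, limma-voom) on that scale; per cell both were higher, by 0.79 and 0.46 on the log2(normalized FPK + 0.1) scale.

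The genes whose profile over the 4 libraries lay nearest to the mean of the C1q chains, by distance on the log2(normalized FPK + 0.1) scale after centring, were Penk, Cxcl1, Pf4, Apoe and Ccl7. Pf4 had 0 and 1 reads in low-MYC and 96 and 78 in high-MYC libraries. The other 4 had many reads in low-MYC too, unlike the C1q chains. Apoe had 165 and 167 reads in low-MYC and 1045 and 918 in high-MYC libraries. Penk had 797 and 764 against 3802 and 3423, Cxcl1 327 and 330 against 1405 and 1174, and Ccl7 987 and 808 against 4227 and 3500. For the other 6 members the nearest were Lrrk1, Nelfa, Tmem104, Camkk1 and Nfatc2ip, which had similar reads in all libraries. For low genes the pseudocount shrinks differences, and the likeness follows from it in part for the C1q chains and for the other 6 members.

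TACh-seq, which maps chromatin open to nuclease, gives a view of the members' start sites that their choice did not use. The deposited table lists 4881417 read positions in MEFs with no column for the library. Its own name points to a wild-type library, but the descriptions of all 4 TACh-seq samples refer to it. These samples are wild-type MEFs and Fubp1 knockout MEFs in which Fubp2 was also knocked down with siRNA. The cells that the table describes are therefore uncertain, and wild-type and Fubp1 knockout, Fubp2 knockdown MEFs are not compared here. The authors called TACh-seq peaks with SICER, and the table may hold only reads inside such peaks, which was not stated. A count of 0 below therefore means no listed read, not an absence of nuclease cuts. Listed reads lay within 500 bp of the start of 59.5% of all listed genes. Among the members 2 of 9 had any read there: C1ra with 64 and C2 with 66, against a median of 113 where a gene had any. The C1q chains, C1s1, C3, C4b and Cfb had 0 listed reads within 500 bp and within 1000 bp. The nearest listed read was 9967 bp from the start of Cfb, 18039 bp from that of C3 and 61449 bp from that of C1qa.

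Starts of genes with little RNA seldom had listed TACh reads. The share of protein-coding genes with a read within 500 bp was 15.9% for genes under 100 RNA reads summed over the 4 libraries, 37.3% from 100 to under 1000, 77.2% from 1000 to under 10000, and 88.9% above. Of the members 2 fell in the lowest class, 5 in the next and 2 (C1ra and C3) in the third, and 0, 1 and 1 of them had reads. The reads counted for C2 belong to the start of a processed transcript 204 bp from Ehmt2, a gene with 22149 and 23760 RNA reads summed over the groups. At 34882100, the start of the coding transcript C2-201, there were 0 reads, and at 34895547, that of the coding transcript C2-205, there were 47. C1ra has 1 annotated transcript, and the gene next to it, C1rl, lies 1762 bp away. The TACh cells were not sorted by MYC, so this does not bear on the difference between the groups.

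**Figure D5:**
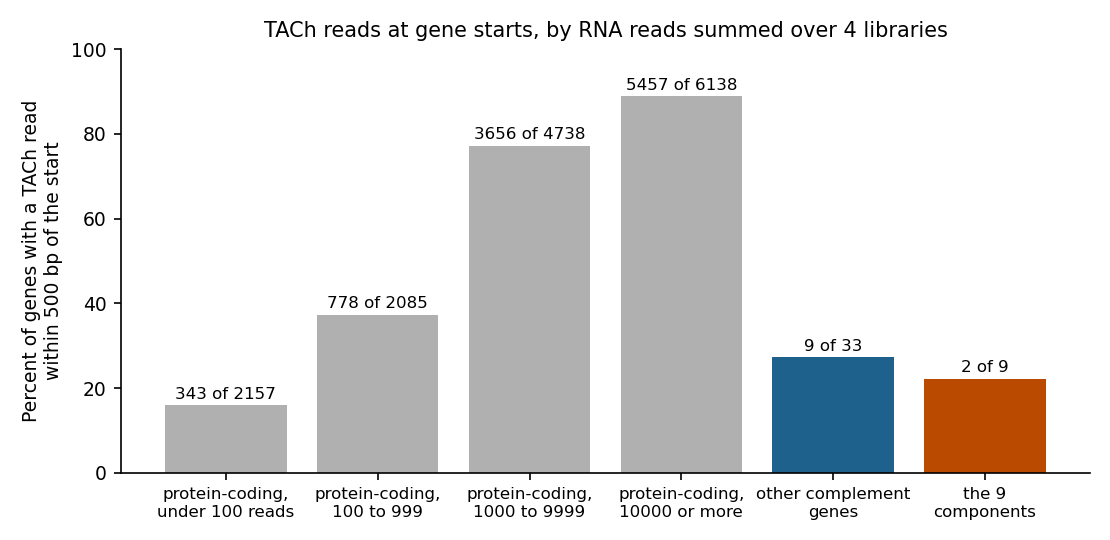
Percent of genes (vertical axis) with at least 1 TACh read within 500 bp of the annotated start, for protein-coding genes in 4 classes of summed RNA reads (grey), 33 other complement genes (blue) and the 9 components (orange); numbers above bars are genes with a read of all genes. The share climbs from 15.9% to 88.9% with RNA reads, and the components stand at 2 of 9. Only listed reads are counted, which may be those inside called peaks.

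The third assay, FUBP1 ChIP-seq, could not be used for these genes: all 166 peaks analysed here lie on chromosome 15, and the members lie on chromosomes 4, 6 and 17. The paper's reporting summary counts far more peaks, so this set may be only a part of them. No absence of FUBP1 at the members can be read from it.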

How the data were processed

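For RNA-seq the authors trimmed reads, used TopHat for alignment to mm10 transcripts and Partek E/M for quantification, and divided by length and by a spike-in score from 10 ERCC RNAs; the deposited values are this signal, the normalized FPK. Versions were not given in the sources used here. The methods name transcript length as divisor, but values multiplied by the genomic span of the gene, introns included, and divided by a constant per library were whole numbers (tolerance 0.05) for 69.9% to 71.0% of values up to 1000 reads, where evenly spread values would give 10%; over a common test set 79.6% were whole with the span and 23.8% with the longest transcript. Reads were recovered in this way; fractional reads come from genes whose reads were split. Normalized FPK of different genes is therefore on unlike scales, and levels between genes are given as reads per kb of the longest GENCODE M21 transcript. No value column was left unassigned.

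Log2(normalized FPK + 0.1) was fitted with limma 3.58.1 (lmFit, eBayes with trend) under R 4.3.3, keeping genes whose mean reached 0.1, with Benjamini-Hochberg adjustment over all 11870 genes; calls needed an adjusted p under 0.01 and 2-fold. Recovered reads, rounded, were fitted with limma-voom for all 19769 genes, an alternative added after the data were seen; its p-values are Benjamini-Hochberg adjusted too. RPM are reads per 1000000 recovered reads. Intervals of ratios are exact binomial intervals at 95% and cover counting error only. The fits were also run on simulated counts with counting error only, a small set of changed genes and no shift of all genes. That setting differs from these libraries, so it does not measure false calls here. The members and gene lists were chosen with earlier results of these data known; genes named are members, list genes, the 5 nearest profiles of each kind and neighbours. The deposited TACh-seq table holds read positions aligned with Bowtie2, an interval length and a mapping score per read, made by the authors. They called peaks with SICER, and whether the table was cut to reads inside peaks was not stated. The 5′ ends were counted around gene starts, and the score was not used for filtering. Values per library had been foreseen for TACh-seq. Promoters and motifs are from RefSeq. Protein sequences are not used here. Other steps ran in Python 3.11.15 (matplotlib 3.10.9, scipy 1.17.1, numpy 2.4.6, pandas 2.3.3). Some list genes are not reported here by name.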

Additional observations from a re-analysis of the deposited data

How the results depend on the processing

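The median log2 fold change of the C1q chains was 3.55, that of the other 6 members 0.89 and the difference 2.66 as reported. A pseudocount of 0.01 gave 6.33, 1.81 and 4.52 and one of 1 gave 1.06, 0.17 and 0.89. With libraries rescaled to the same median the first 2 were 3.12 and 0.48 and the difference 2.64. Chosen after seeing the data, ratios of means gave 8.68, 2.55 and 6.13, and ratios of RPM 7.50, 1.36 and 6.14. Leaving out a library gave 3.45 to 3.66, 0.87 to 0.89 and 2.56 to 2.78. All these values kept their sign. Of all genes 6540 were called at least 2-fold higher, against 10076 with a pseudocount of 0.01, 1448 with 1, 68 after rescaling, 14268 with limma-voom on the spike-in scale and 452 with limma-voom in RPM, and 5664 to 7357 without a library. Of the other complement genes 11 were called, against 1 with a pseudocount of 1, 2 after rescaling, 26 with limma-voom on the spike-in scale (72.2% of all genes) and 9 to 10 without a library, where the lone library of a group is assumed to vary like the other group. The replicate block gave 6556 and 11; same-numbered libraries share only a number (correlation of their deviations 0.081). The number of members with TACh reads was 2 within 500 and within 1000 bp. Depth limits the 3 C1q chains, C4b and Cfb, which had 15 reads or fewer in each low-MYC library.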
